A study of Mus musculus with 8 samples.

Results

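GABA-A receptor subunits were examined in the trigeminal ganglion of mice carrying a transgene for daDREAM. The members were 7 subunit genes, Gabra2, Gabra3, Gabra5, Gabrb1, Gabrb2, Gabrg1 and Gabrg3. All probe sets whose platform annotation gives one of these symbols alone were taken, which made 23 of 45037 probe sets and 7 of 18193 genes, and no listed symbol was without a probe set. RNA of 4 control and 4 daDREAM transgenic samples was hybridised to 1 array each. The labels describe the mice of both groups as adult and male on a C57B/6XCBA background, name no other allele, treatment or agent, and mark the 4 transgenic titles with the tag tg16. Kcnip3 encodes DREAM, a repressor that leaves its DNA elements, which have a GTCA core, when it binds calcium, and daDREAM is a dominant active mutant. No source used here gives the promoter of the transgene, whether tg16 is 1 line, or whether 1 mouse or several went onto an array. P-values therefore measure the spread between these samples.

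GABA-A receptors are chloride channels of pentameric build that open when GABA, the main inhibitory transmitter, binds between an alpha and a beta subunit. The gamma subunit anchors the receptor at synapses and, with alpha, forms the site at which benzodiazepines bind. Sensory neurons keep their internal chloride high, so that GABA depolarises them, and receptors on their central endings mediate presynaptic inhibition. Most subunit genes lie in clusters, and the subunit mixture sets where a receptor sits and how drugs act on it.

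The arrays matched the tissue label, with 11 measured sensory neuron markers averaging between 11.21 and 11.46 on the log2 scale on all 8 arrays. Some arrays stood apart. Xist, expressed from the inactive X of females, was at 10.20 (control replicate 3), 11.72 (control replicate 4) and 11.51 (daDREAM replicate 4), against 6.10 to 6.49 on the others, although the label says male. The male marker Eif2s3y read 8.40, 7.16 and 4.46 on these arrays in the same order, against 8.74 to 9.04 elsewhere. Kdm5d, also a male marker, read 6.44, 4.79 and 3.80 there, against 6.55 to 7.12 elsewhere. Uty was lower on control replicate 4 and daDREAM replicate 4 only, at 6.53 and 5.08. Whether an array with both signals held RNA of several mice was not tested. The 18S control probe sets averaged 9.41 and 10.65 on control replicates 1 and 4, against 7.71 to 8.11 elsewhere. Growth hormone (Gh), a pituitary product, read 11.15, 12.50 and 13.43 on control replicate 3 and daDREAM replicates 3 and 4, against 9.04 to 10.66 on the others. Acta1, the actin of skeletal muscle, stood at 9.20 and 9.40 on the same replicates 1 and 3 of the control group, against 6.60 to 7.07 elsewhere. Results are given with and without these arrays.

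Of the 7 members, 3 rose in daDREAM ganglia, Gabra2 by 1.96-fold, Gabrb1 by 1.57-fold and Gabrb2 by 1.38-fold, and 0 fell. Each gene was read at its brightest probe set, values are log2 RMA levels, and differences are daDREAM minus control, tested with limma and called at a Benjamini-Hochberg adjusted p under 0.05 over all genes. The other 4, Gabra3, Gabra5, Gabrg1 and Gabrg3, did not pass. Of all genes tested, 0.984% were called as higher and 1.02% as lower. The 3 that rose were also those whose groups did not overlap, all with the daDREAM arrays higher, where 5% of all genes were separate in that direction and 5.73% in the other. The difference was above 0 for 6 of 7 members and for 50.5% of all genes. The members were listed with earlier results of these data known, so these counts are a description. The median difference of the 7 genes was 0.29, against 0.00 over all genes. Over probe sets, 4 of 23 rose and 0 fell, where 1.42% of all probe sets were called as higher, 1.32% as lower and 2.74% in either direction. The 4 belonged to Gabra2, Gabrb1 and Gabrb2. Groups were separate for 6 of 23 probe sets, all higher in daDREAM, against 5.13% of all probe sets that were separate and higher and 5.91% that were separate and lower. The difference was above 0 for 18 of 23, and for 48.1% of all probe sets.

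**Figure D1:**
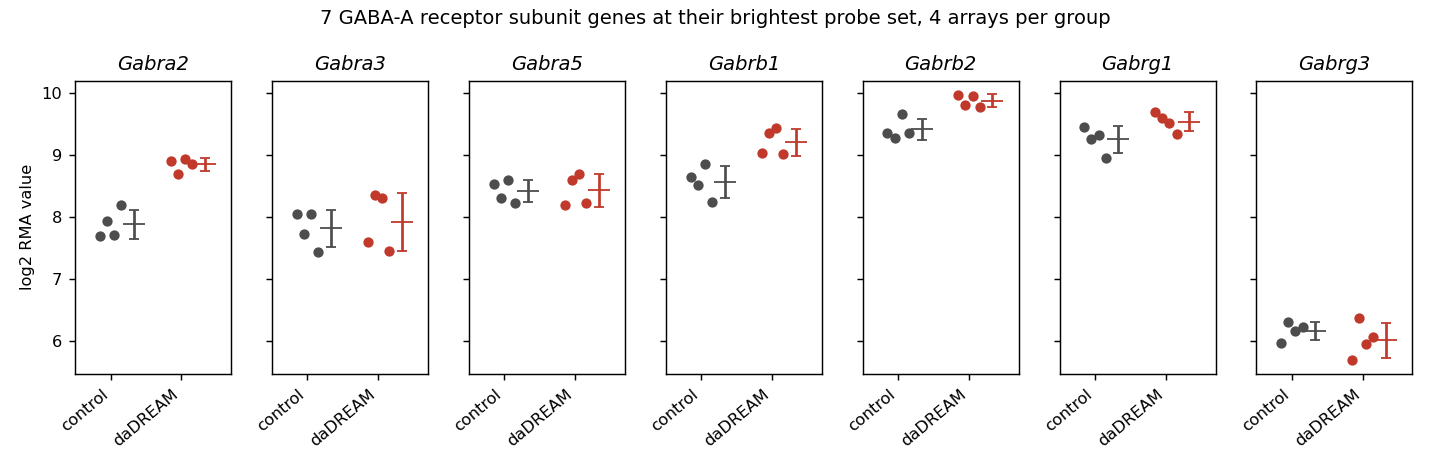
Log2 RMA values of the 7 subunit genes at their brightest probe set; each point is 1 array, and the bars beside the points are mean ± SD of 4 arrays. Control and daDREAM points are separate for Gabra2, Gabrb1 and Gabrb2 and overlap for the other 4 genes; heights of different genes are readings of different probes and are not comparable.

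Gabra2 encodes alpha2, the subunit common at synapses on axon initial segments and in pathways of pain inhibition. Its brightest probe set by the mean over all 8 arrays was 1455444_at, at 8.36 against 8.32 for 1421738_at. That choice drew on the daDREAM arrays, since among control arrays alone 1421738_at was brighter, at 7.94 against 7.88. At 1455444_at Gabra2 read 7.69, 7.93, 7.70 and 8.19 on control replicates 1 to 4 and 8.91, 8.70, 8.93 and 8.85 on daDREAM replicates 1 to 4. Every daDREAM array lay above every control array, and the daDREAM arrays were the closer together of the groups. The group levels were 7.88 ± 0.24 and 8.85 ± 0.10 (SD, n = 4 each), a difference of 0.97 (SE 0.11, 95% interval 0.72 to 1.22, limma adjusted p = 7.14e-04 over genes). Probe set 1443865_at read 7.44, 7.71, 7.46 and 7.83 in control and 8.77, 8.80, 8.70 and 8.73 in daDREAM samples. Its groups were also separate, with a difference of 1.14 (SE 0.09, 95% interval 0.93 to 1.35, adjusted p = 3.01e-05 over probe sets).

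The third bright Gabra2 probe set, 1421738_at, read 7.20, 8.11, 8.06 and 8.40 on the control arrays and 8.70, 8.74, 8.69 and 8.70 on the daDREAM arrays. The groups did not overlap, but control replicate 1 lay well below the other controls, and the difference of 0.77 (SE 0.20) did not pass (limma adjusted p = 0.0670 over probe sets). It passed without control replicate 1, at 0.52 (adjusted p = 0.0174), and without control replicate 4, at 0.92 (adjusted p = 0.0272). The remaining 2 Gabra2 probe sets share a source sequence and were dim, with means of 5.17 and 4.15, under a log2 level of 6, as are 29.4% of all tested probe sets. They differed by 0.37 and 0.20 without passing.

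Gabra2 passed over genes in each of the 8 fits that left out 1 array, with differences from 0.91 to 1.07 and adjusted p up to 0.00415. Without the 3 arrays with female signal the difference was 1.04 (limma adjusted p = 0.00487). Without the 3 arrays with the most Gh it was 0.87 and did not pass over genes (adjusted p = 0.0673), while 1455444_at and 1443865_at passed over probe sets. Gabra2 is known to differ in level between inbred mouse strains. Of 6 other measured genes known to do so, 0 passed limma and 3 had an unadjusted p under 0.05, a larger share than the 18.2% of all genes tested. Among these 3, groups did not overlap for Wdfy1, with a difference of 0.76 (adjusted p = 0.0822), and for H2-Ea, at -0.36 (adjusted p = 0.144). They overlapped for Ide, at 0.21 (limma adjusted p = 0.213). No source used here gives the alleles that each mouse carried at these genes, and their part in the Gabra2 result was not tested.

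The promoter windows of the 3 members that rose are shown because DREAM binds elements with the core GTCA. RefSeq windows of build GRCm38.p6 run from 250 bases before to 50 after an annotated start, and the 7 members matched 11 windows, since Gabra3, Gabrb1 and Gabrb2 have several. GTCA and its reverse complement TGAC are in capitals, and each sequence is printed 5′ to 3′ on the gene's own strand. The printed windows are the Gabra2 window at chr5:71095800-71096099 (minus strand), the upstream Gabrb1 window at chr5:71657671-71657970 (plus strand) and the upstream Gabrb2 window at chr11:42420190-42420489 (plus strand).
Gabra2: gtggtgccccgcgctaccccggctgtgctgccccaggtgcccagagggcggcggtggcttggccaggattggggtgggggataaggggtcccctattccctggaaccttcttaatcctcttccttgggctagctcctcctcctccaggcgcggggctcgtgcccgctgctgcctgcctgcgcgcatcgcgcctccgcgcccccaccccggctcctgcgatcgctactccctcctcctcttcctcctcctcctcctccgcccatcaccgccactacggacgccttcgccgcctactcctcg
Gabrb1: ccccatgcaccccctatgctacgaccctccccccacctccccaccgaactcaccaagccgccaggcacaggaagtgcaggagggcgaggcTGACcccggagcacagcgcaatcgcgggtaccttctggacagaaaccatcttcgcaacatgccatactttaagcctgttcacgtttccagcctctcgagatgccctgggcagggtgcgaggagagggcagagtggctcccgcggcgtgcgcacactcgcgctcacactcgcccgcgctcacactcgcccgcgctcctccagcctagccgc
Gabrb2: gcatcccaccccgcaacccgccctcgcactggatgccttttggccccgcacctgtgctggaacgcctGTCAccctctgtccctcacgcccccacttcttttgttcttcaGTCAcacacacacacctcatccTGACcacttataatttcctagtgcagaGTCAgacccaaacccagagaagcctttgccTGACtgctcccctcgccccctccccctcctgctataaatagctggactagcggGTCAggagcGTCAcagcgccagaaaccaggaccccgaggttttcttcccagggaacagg

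The Gabra2 window held 0 copies of GTCA on either strand, the Gabrb1 window 1 and the Gabrb2 window 7. Of 32851 windows of this length, 85.2% held at least 1 copy, 14.8% none and 0.971% held 7 or more. The second Gabrb1 window held 0, and the further Gabrb2 windows held 1 and 0. Members that did not pass also held the motif, with 4 copies in the Gabra5 window, 2 in that of Gabrg1, 2 in that of Gabrg3, and 2 and 4 in the overlapping Gabra3 windows. Longer elements that overlap these letters were also searched on both strands. TGACTCA and its reverse complement TGAGTCA, the form bound by AP-1, and the palindromic CRE, TGACGTCA, were in 0 of the 11 member windows, against 5.2% and 1.79% of all windows. A match describes the letters of a window and does not show a site, and a window without one says only that these letters are not there.

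Gabrb1 encodes beta1, one of the subunits that complete the GABA site. Its brightest probe set, 1419719_at, read 8.64, 8.51, 8.85 and 8.24 on control replicates 1 to 4 and 9.03, 9.36, 9.43 and 9.01 on daDREAM replicates 1 to 4. The groups did not overlap, and control replicate 4 was the lowest and daDREAM replicate 3 the highest array. The levels were 8.56 ± 0.26 and 9.21 ± 0.22 (SD, n = 4 each), a difference of 0.65 (SE 0.14, 95% interval 0.35 to 0.95, limma adjusted p = 0.0343 over genes). The next probe set, 1435095_at, read 6.85, 6.71, 7.07 and 6.37 in control and 6.94, 7.34, 7.46 and 6.89 in daDREAM samples, with the same lowest and highest arrays but overlapping groups. Its difference of 0.41 (95% interval 0.06 to 0.76) did not pass (adjusted p = 0.209 over probe sets).

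The remaining Gabrb1 probe sets did not show a higher level. Probe set 1443205_at differed by -0.18 (95% interval -0.58 to 0.22), with control replicate 3 highest at 7.36, and the dim 1443834_at, with a mean of 4.04, by -0.01. With the mean of its 4 probe sets, Gabrb1 differed by 0.21 and did not pass (limma adjusted p = 0.336). The call was lost without control replicate 1, 2 or 4 or without daDREAM replicate 2 or 3, with adjusted p from 0.0632 to 0.120 and differences from 0.54 to 0.67. It was also lost without the arrays with the most 18S (0.53, adjusted p = 0.195), with the most Gh (0.73, adjusted p = 0.122) or with female signal (0.70, adjusted p = 0.0515).

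Gabrb2 encodes beta2, the beta subunit of the most abundant receptor type in the brain. At 1429685_at it read 9.36, 9.28, 9.66 and 9.35 on control replicates 1 to 4 and 9.97, 9.81, 9.96 and 9.77 on daDREAM replicates 1 to 4. The groups did not overlap, control replicate 3 coming nearest to the daDREAM arrays. The levels were 9.41 ± 0.17 and 9.88 ± 0.10 (SD, n = 4 each), a difference of 0.47 (SE 0.09, 95% interval 0.26 to 0.67, limma adjusted p = 0.0276 over genes). Probe set 1450319_at read 7.05, 7.46, 7.68 and 7.53 in control and 7.84, 7.94, 7.85 and 8.05 in daDREAM samples. These groups were separate as well, and the difference of 0.49 did not pass (SE 0.12, adjusted p = 0.0573 over probe sets).

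The 3 remaining Gabrb2 probe sets, which share a source sequence, differed by 0.34, 0.07 and 0.11 with overlapping groups. The first of them, 1428203_at, had an adjusted p of 0.111 over probe sets. With the mean of all 5 probe sets Gabrb2 differed by 0.29 (limma adjusted p = 0.0784). Over genes its call was lost in 6 of 8 fits without 1 array, all but those without control replicate 3 or daDREAM replicate 4, with adjusted p from 0.0597 to 0.0991. It was lost after renewed quantile normalization (0.40, adjusted p = 0.0567), without the arrays with the most 18S (0.41, adjusted p = 0.199) and without those with the most Gh (0.56, adjusted p = 0.0882). Without the arrays with female signal it passed at 0.59 (adjusted p = 0.0229).

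**Figure D2:**
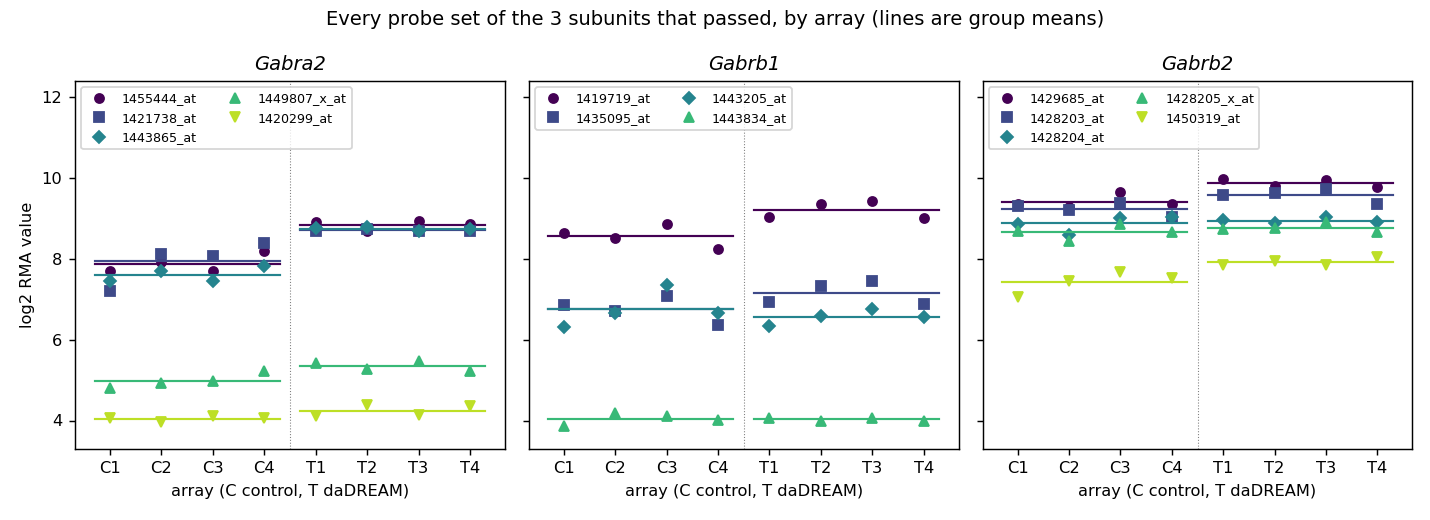
Log2 RMA values of every probe set of Gabra2, Gabrb1 and Gabrb2 on control (C1 to C4) and daDREAM (T1 to T4) arrays; points are arrays and horizontal lines group means. The 3 bright Gabra2 probe sets all step up in daDREAM arrays, while for Gabrb1 and Gabrb2 some probe sets differ and others, such as 1443205_at (-0.18) and 1428204_at (0.07), do not.

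Whether probe sets of a gene gave unequal differences was tested within arrays, by comparing the brightest probe set with each other one over 16 pairs. For 7 pairs the two-sided exact permutation p was 0.0286, the smallest that 70 assignments allow, and the adjusted p was 0.0653. These were 2 pairs of Gabra2, involving its dim probe sets, 3 of Gabrb1 and 2 of Gabrb2. No pair passed. With that smallest p, a pair can pass only when enough pairs reach it together, so this does not show equal differences. The brightest Gabrb1 probe set exceeded 1443205_at by 0.83 and 1435095_at by 0.24 in the size of its group difference. The bright Gabra2 probe sets differed from each other by 0.21 and -0.17 (exact permutation p = 0.343 and 0.0571), and for Gabrb2 1429685_at and 1450319_at by -0.02 (exact permutation p = 0.971).

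**Figure D3:**
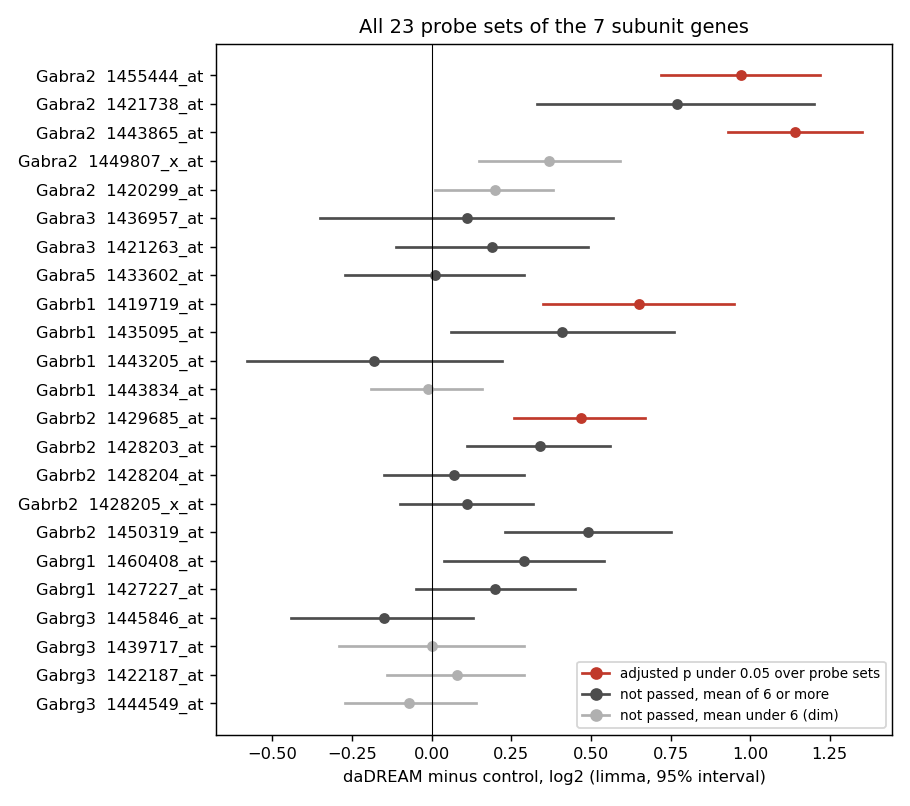
Difference between daDREAM and control on the log2 scale for all 23 probe sets, with the 95% interval of the limma fit; red marks an adjusted p under 0.05 over probe sets and light grey a mean level under 6. The 4 red intervals belong to Gabra2 (0.97 and 1.14), Gabrb1 (0.65) and Gabrb2 (0.47).

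Among the other alpha members, Gabra3, whose alpha3 subunit marks receptors of many spinal and brainstem neurons, read 8.05, 7.72, 8.05 and 7.43 in control and 7.59, 8.35, 8.30 and 7.45 in daDREAM samples. Both groups held high and low arrays, and they overlapped. The difference was 0.11 (SE 0.21, 95% interval -0.35 to 0.57, limma adjusted p = 0.816), and the other Gabra3 probe set differed by 0.19 (95% interval -0.11 to 0.49). Gabra5, whose alpha5 subunit forms mainly extrasynaptic receptors, had 1 probe set, which read 8.53, 8.31, 8.60 and 8.23 in control and 8.19, 8.60, 8.70 and 8.22 in daDREAM samples. The same arrays were high and low as for Gabra3, control replicates 1 and 3 and daDREAM replicates 2 and 3 being the higher ones. The difference was 0.01 (SE 0.13, 95% interval -0.27 to 0.29, adjusted p = 0.979), an interval that does not reach the sizes seen for Gabra2 and Gabrb1. The sign of these small differences turned in several fits, to -0.38 for Gabra3 and -0.31 for Gabra5 at the most.

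Of the gamma members, Gabrg1, a subunit found in glia and some neurons, read 9.46, 9.26, 9.33 and 8.95 in control and 9.70, 9.60, 9.52 and 9.34 in daDREAM samples. The daDREAM arrays were mostly higher, but daDREAM replicate 4 lay within the control range. The difference was 0.29 (SE 0.11, 95% interval 0.04 to 0.54, limma adjusted p = 0.218), with an unadjusted p of 0.0268. The other Gabrg1 probe set, from the same source sequence, differed by 0.20 (95% interval -0.05 to 0.45). Gabrg3 read 5.96, 6.30, 6.16 and 6.22 in control and 5.68, 6.36, 5.94 and 6.05 in daDREAM samples at its brightest probe set. That is close to a level of 6, its other 3 probe sets had means from 4.67 to 5.45, and the difference was -0.15 (95% interval -0.44 to 0.13, adjusted p = 0.554). A change in a gene so near background could be missed.

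Gabrg1, Gabra2, Gabra4 and Gabrb1 are neighbours on chromosome 5, and their differences were 0.29, 0.97, 0.19 and 0.65. Gabra4, whose alpha4 subunit forms extrasynaptic receptors, lies between Gabra2 and Gabrb1 and did not pass (limma adjusted p = 0.411); its other probe set differed by 0.51 (adjusted p = 0.111 over probe sets). The 13 other measured genes of this stretch, 6 on each side and Cox7b2 within it, ranged from -0.19 to 0.17, and 0 passed. Gabrb2 on chromosome 11 lies next to Gabra6, and 12 measured genes around them ranged from -0.24 to 0.23 with 0 past the test. Around Gabra5 and Gabrg3 on chromosome 7 the 12 neighbours ranged from -0.19 to 0.18, and around Gabra3, Gabre and Gabrq on the X chromosome the 12 neighbours ranged from -0.21 to 0.22; 0 passed in either. Of these 49 neighbours, 4 had a limma unadjusted p under 0.05, none of them on chromosome 5, against 18.2% of all genes. The gene order is that of RefSeq, and the number of neighbours was chosen after the member values were known.

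**Figure D4:**
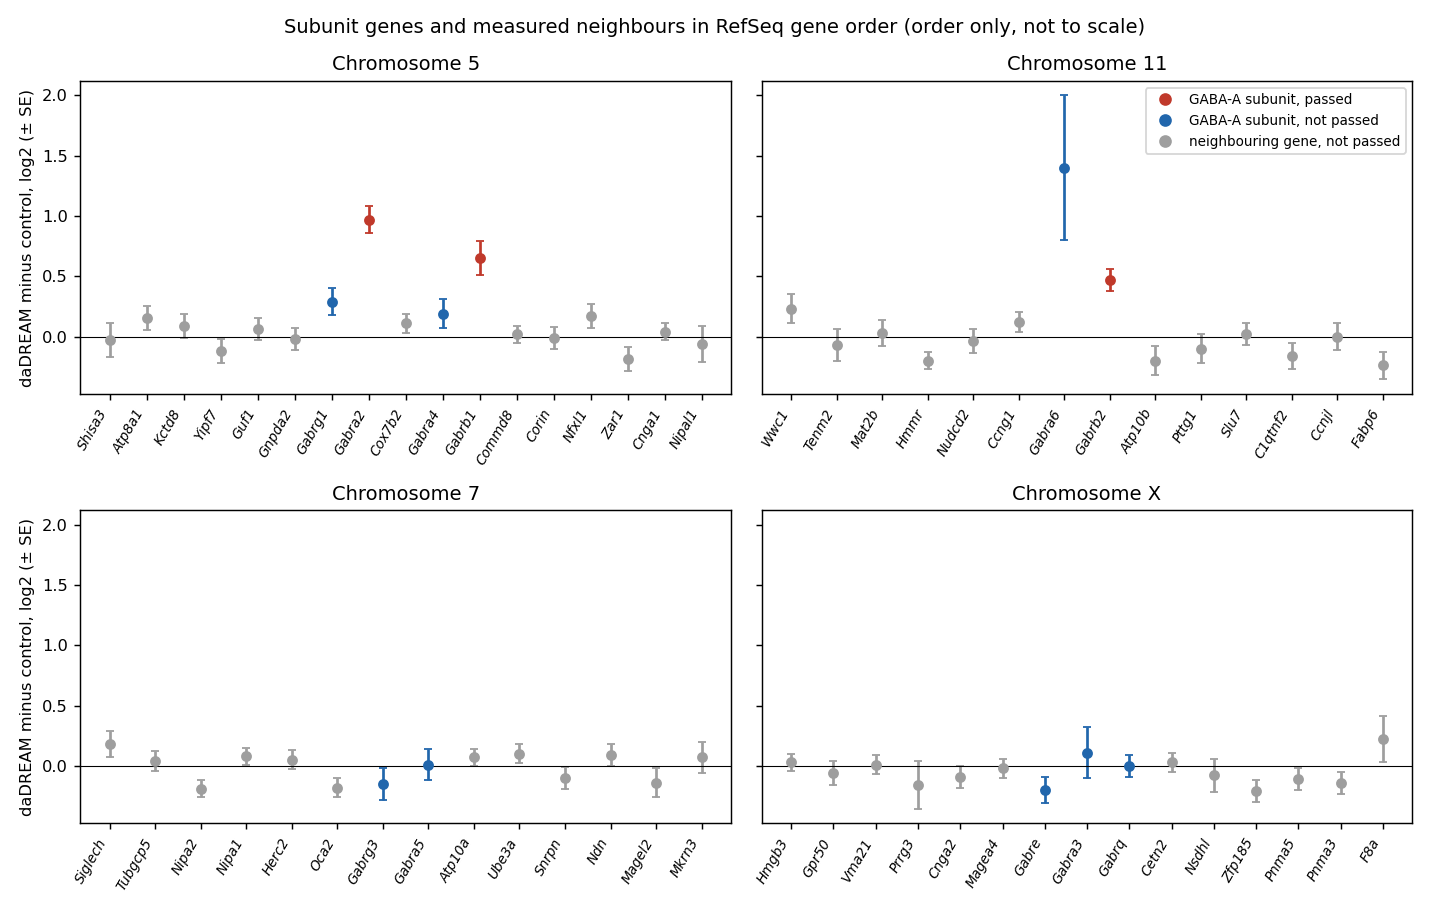
Difference between daDREAM and control on the log2 scale (± SE of the limma fit) for subunit genes and 6 measured neighbours on each side, in gene order on chromosomes 5, 11, 7 and X. Gabra2, Gabrb1 and Gabrb2 (red) stand above neighbours that lie between -0.24 and 0.23; Gabra6 (blue, chromosome 11) has the widest error.

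Of 8 other GABA-A subunits measured, 0 passed limma, with 2 at an unadjusted p under 0.05, where 18.2% of all genes were. Gabra6, a subunit of cerebellar granule cells, had the largest difference, 1.40 (SE 0.60, adjusted p = 0.251). It read 7.21, 8.24, 6.42 and 6.23 in control and 9.96, 7.05, 9.14 and 7.55 in daDREAM samples, so daDREAM replicates 1 and 3 were high and the groups overlapped. The other Gabra6 probe set differed by 0.76, also with overlapping groups (limma adjusted p = 0.311 over probe sets). Gabrp, the pi subunit of epithelia, was lower by 0.22 on the log2 scale in separate groups (limma difference -0.22, adjusted p = 0.216), while its other probe set differed by 0.24 with overlapping groups (adjusted p = 0.381 over probe sets). Gabrd (0.24), a partner of alpha4 and alpha6, Gabre (-0.20), Gabrq (0.00), Gabrr1 (-0.15) and Gabrr2 (-0.17) overlapped between groups, the last 4 with control means between 4.76 and 5.82.

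Across the rest of the GABA system, 26 further genes were measured. Of these, 1 was called as higher, as were 0.984% of all genes: Slc6a13, a plasma membrane transporter of GABA and taurine. It read 7.74, 8.05, 7.78 and 7.88 in control and 8.53, 8.15, 8.25 and 8.35 in daDREAM samples, in separate groups. The difference was 0.46 (SE 0.10, limma adjusted p = 0.0382), and the call was lost in 6 of 8 fits without 1 array. Of all 34 measured genes outside the members, 25 had a difference above 0 and 8 below it, with a median of 0.13. Over all genes 50.5% had a difference above 0, and the median was 0.00. Abat, which breaks GABA down, differed by 0.40 (adjusted p = 0.218), and by -0.11 at its other probe set. Among genes of receptor assembly and transport, Clptm1, which retains receptors in the endoplasmic reticulum, differed by 0.23, Plcl1, a binder of beta subunits, by 0.23 and Trak2, a motor adaptor, by 0.23 (adjusted p = 0.230, 0.242 and 0.276). Their other probe sets differed by 0.22, 0.51 and 0.26 (limma adjusted p = 0.296, 0.0703 and 0.258 over probe sets). Of these, only that of Plcl1, with a dim control mean of 5.44, had separate groups. The chloride transporters Slc12a2, which loads chloride, and Slc12a5, which extrudes it, differed by -0.12 and 0.58 (adjusted p = 0.454 and 0.354), and the GABA-synthesising enzymes Gad1 and Gad2 by 0.87 and -0.12 (adjusted p = 0.309 and 0.740). Without the arrays with female signal, Gad1 was the 1 gene of the 34 that passed, and Slc6a13 did not.

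Markers of the central nervous system differed between the groups in the same direction as the members that rose. All 16 measured markers were above 0, 1 of them, the astrocyte water channel Aqp4, passed limma (0.76, adjusted p = 0.0173), 7 had an unadjusted p under 0.05, where 18.2% of all genes did, and the list's median was 0.40. Their mean level ran from 8.28 to 9.06 on control arrays and from 8.94 to 9.51 on daDREAM arrays. Neurod6 and Otx2 alone had means under 6, and some, such as Gja1, are also made by glia of the ganglion. Control replicate 4 had the lowest and daDREAM replicate 3 the highest mean, as for Gabrb1 at 1419719_at. Gabrb2 at 1429685_at was instead lowest on control replicate 2, at 9.28, and highest on daDREAM replicate 1, at 9.97. Gfap, the astrocyte filament, read 8.63, 10.20, 10.22 and 8.29 in control and 10.78, 10.89, 11.24 and 10.77 in daDREAM samples, in separate groups (difference 1.59, limma adjusted p = 0.0660). Gabra2 at 1455444_at was highest among controls on control replicate 4, at 8.19. It was highest of all arrays on daDREAM replicate 3, at 8.93, with daDREAM replicate 1 at 8.91. At the other bright Gabra2 probe sets, 1443865_at and 1421738_at, daDREAM replicate 3 was the lowest daDREAM array, at 8.70 and 8.69. The part of central nervous system tissue in the differences of the members was not tested apart from group. The marker mean differed between the groups, so marker level and group cannot be fully told apart.

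With the mean of these markers as a covariate, an alternative chosen after seeing the data, Gabra2 differed by 1.14 and passed (limma adjusted p = 0.00630 over genes). Gabrb1 then differed by 0.26 (adjusted p = 0.580) and Gabrb2 by 0.29 (adjusted p = 0.496), and neither passed. The marker mean itself differed between the groups, so the fit with this covariate cannot fully separate marker level from group. Over all genes, 127 passed in that fit against 364 without the covariate. In RNA of whole tissue, more cells of a type and more RNA per cell cannot be told apart. Of 10 muscle markers 0 passed limma and 6 had an unadjusted p under 0.05, where 18.2% of all genes did. Pvalb was above 0, at 0.34 in separate groups, and 9 markers were below 0, with a list median of -0.48. Their mean was 8.39 and 7.70 on control replicates 1 and 3, and 7.02 and 6.92 on control replicates 2 and 4, against 6.90 to 6.99 on daDREAM arrays. Without the 2 arrays with the most Acta1, Gabra2 differed by 0.79, Gabrb1 by 0.83 and Gabrb2 by 0.56, and all 3 passed (adjusted p = 0.0124, 0.0398 and 0.0353).

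**Figure D5:**
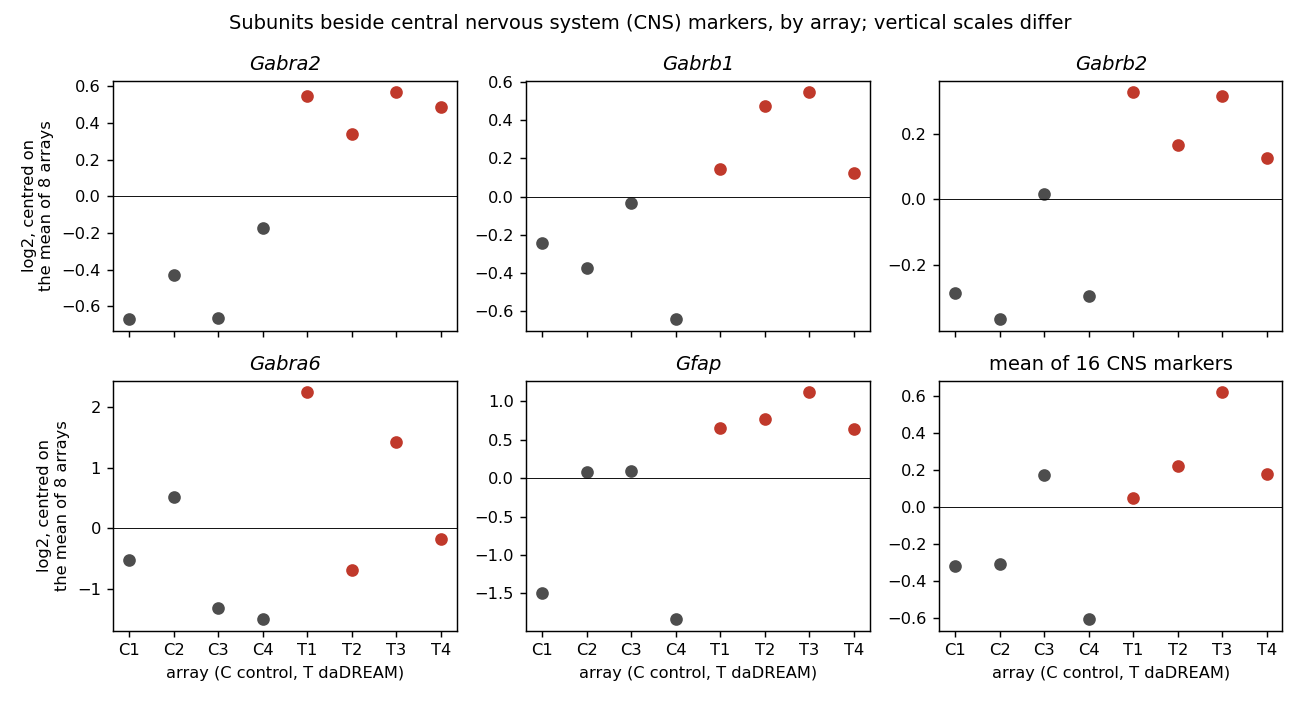
Log2 values centred on the mean of all 8 arrays for Gabra2, Gabrb1, Gabrb2, Gabra6, Gfap and the mean of 16 central nervous system markers, by array (C1 to C4 control in dark grey, T1 to T4 daDREAM in red); vertical scales differ between panels. Gabrb1 is lowest on C4 and highest on T3, as is the marker mean, while Gabrb2 is lowest on C2 and highest on T1. Gabra2, drawn at 1455444_at, is highest among controls on C4 and highest of all arrays on T3 (8.93), with T1 close to it (8.91). At 1443865_at and 1421738_at, not drawn here, T3 is the lowest daDREAM array.

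The genes whose profile over the 8 arrays came nearest to each member that rose were found among 13769 named genes with a mean of at least 6, by the root mean square difference of centred log2 values. Nearest to Gabra2 were Ttc5 (0.137), Eps8l1 (0.139) and Senp1 (0.143), all 3 with a difference that passed, of 0.88, 1.00 and 0.98. Nearest to Gabrb1 were Spon1 (0.087), the glutamate transporter gene Slc1a1 (0.090) and Rasgrp3 (0.106), with differences of 0.60, 0.50 and 0.63 that did not pass. Nearest to Gabrb2 were the bicarbonate transporter gene Slc4a10 (0.074), Kcne1l (0.083) and Kctd21 (0.086), with differences of 0.47, 0.51 and 0.53, of which the last pair passed. These distances describe 8 arrays that share the group difference and carry no test.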

How the data were processed

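The 8 samples, 4 control and 4 daDREAM, were grouped by their titles. The deposited log2 values per probe set were made by the authors with RMA from the package affy, as the submitters' processing notes name it; no source used here gives the version, probe set definitions or build. RMA's quantile normalization makes differences relative to the average gene. Values ran from 3.39 to 14.94, with array medians from 7.09 to 7.13. Of 45101 probe sets, 64 controls were left out; platform annotation gave 34945 of the rest 1 symbol, 932 several and 9160 none. A Gabrg3 probe set with several symbols was left out. The brightest single-symbol probe set by its mean over all 8 arrays of both groups stood for a gene.

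For genes and probe sets the test was limma's moderated test (version 3.58.1, R 4.3.3; two-sided, group only, Benjamini-Hochberg over all 18193 genes or 45037 probe sets), which was also tested on simulated data. Single quantities were compared by exact permutation in Python 3.11.15. Alternatives covered normalization, dim probe sets, the choice of probe set, variance prior, unequal variances, array weights, the replicate number as a block, and arrays left out. Named were all members, other subunits, further GABA genes that passed or otherwise the 4 with the smallest p, and nearest profiles; Gad1, Gad2 and the chloride transporters were added after their values were seen. Members and lists were chosen with earlier results of these data known. The number of arrays limits the precision.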

Additional observations from a re-analysis of the deposited data

Results flagged for a closer look

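Of 46 groups of 4 arrays over the 23 probe sets, 2 held an array far from the other 3 of its group, where chance gives about 1 in 20. For Gabrg1 at 1427227_at, control replicate 1 read 8.13, above the other controls. For Gabrg3 at the dim 1422187_at, control replicate 2 read 4.98, below the other controls. Neither probe set was called in any fit.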

How the results depend on the processing

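Of 22 alternatives over genes, Gabra2 passed in 20, with differences from 0.69 to 1.14; Gabrb1 passed in 11 (0.21 to 0.83) and Gabrb2 in 9 (0.29 to 0.59). All 3 kept their direction in all of these. The count of 3 members past the test became 0 with the unequal-variance test (3 at an unadjusted p under 0.05) and 0 without the arrays with the most Gh (limma, 4 unadjusted). It became 1, Gabra2, without the arrays with the most 18S, with a gene's probe sets averaged, and with the marker covariate, and it ran from 1 to 3 without 1 array. The count of 4 probe sets became 0 with the unequal-variance test (7 unadjusted), 2 without the Gh arrays, 2 with the covariate, 7 with array weights, 7 without the arrays with female signal, and 2 to 5 without 1 array. The count of 1 other GABA gene became 2 with the probe set of largest variance and 0 with the unequal-variance test, array weights, the covariate, or without the Gh, 18S or Acta1 arrays (limma, 2 to 12 unadjusted; 1 by the unequal-variance test), and 0 to 1 without 1 array. The cause of these changes was not tested.

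The labels tie the replicate numbers to nothing shared. Deviations of same-numbered arrays correlated across genes at 0.21, 0.01, 0.33 and 0.36, so not every pair exceeded 0.1, and control replicate 2 correlated best with daDREAM replicate 1 (0.31). With the replicate number as a block, 672 of all genes passed against 364. Then 8 probe sets passed, with 1421738_at, 1435095_at, 1428203_at and 1450319_at added, and 3 other GABA genes (Gad1, Abat and Slc6a13), and the same 3 members (Gabra2 adjusted p = 0.00141, Gabrb1 0.00474, Gabrb2 0.0120).

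Differences that turned sign were uncalled. With the covariate, Gabra3 (1436957_at) read -0.38, Gabra5 (1433602_at) -0.31, Gabrb1 1435095_at -0.06, Gabrb2 1428205_x_at -0.07 and Gabrg3 1422187_at -0.04. After renewed quantile normalization Gabra5 read -0.04 and Gabrb1 1443834_at 0.02, and without the 18S arrays Gabra5 read -0.03. Without the arrays with female signal Gabrb1 1443205_at read 0.08 and 1443834_at 0.02, and without the Gh arrays the latter read 0.01. Without 1 array the differences ran from -0.03 to 0.27 for Gabra3, from -0.08 to 0.09 for Gabra5, from -0.32 to 0.02 for Gabrb1 1443205_at, from -0.07 to 0.03 for 1443834_at and from -0.03 to 0.12 for Gabrb2 1428204_at. Signal near background limits Gabrg3 and the dim probe sets of Gabra2 and Gabrb1.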
